A study of Mus musculus with 24 samples.

Results

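Expression of 8 genes that mark T lymphocytes was followed through the lungs of 12 kinds of mice: Cd3e, Cd3g, Cd3d, Cd4, Cd8a, Lck, Cd2 and Thy1. They were taken by symbol, with every probe set that the array's annotation gives to one of them. Of the 8 symbols, 7 had a probe set named to them, with 9 probe sets of 22690 in all and 7 of the 12859 genes named, and Lck, which had none named to it, was not analysed here. A probe set is a group of short oligonucleotides against one transcript, and its signal is a brightness in arbitrary units. Probe sets with a mean signal under 169 were counted as dim, because 60% of the array's probe sets lay above that level. By this limit 2 probe sets, Cd3g at 197.7 and Thy1 at 376.6, were above it and 7 were dim. Cd3g was the nearest inside the limit and Cd3d, at 151.7, the nearest outside. The other dim means were 138.1 for Cd3e, 135.2 and 15.4 for the pair of Cd8a probe sets, 97.7 for Cd2, and 39.9 and 4.8 for the pair of Cd4 probe sets. The symbols are those of a broader T cell set than a receptor complex, since Cd2 and Thy1 are surface proteins outside it and the receptor's own alpha and beta chains are not among them.

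Total RNA of whole lung was hybridised to 24 Affymetrix Mouse 430A arrays, 2 for each of 12 strains. The mice were untreated males aged 8 weeks from the Jackson Laboratory. The progenitor strains were C57BL/6J (B6) and C3H/HeJ (C3), and the third group was their F1 hybrid. The other 9 groups were recombinant inbred (RI) BXH strains, BXH2, BXH4, BXH6, BXH7, BXH8, BXH9, BXH10, BXH14 and BXH19, each inbred from that cross so that it carries a fixed mixture of both progenitors' alleles. The design text speaks of 2 lung samples per strain, but nothing says how the 2 arrays of a strain relate to separate animals, so every p-value is about the scatter of these arrays, and that scatter may be technical. The arrays were alike in scale, with trimmed means of 500.11 to 500.13 and medians of 239 to 269.6. Arrays of one strain correlated at 0.948 to 0.973, arrays of different strains at 0.902 to 0.966, and 18 of 24 arrays were closest to their own strain's other array. The labelled tissue was borne out by lung epithelial genes. Sftpc, the surfactant protein C gene of alveolar type II cells, read 9579.1 to 20160.1 by its brighter probe set and 6.9 to 79 by another. Scgb1a1, the secretoglobin of club cells, read 11222.9 to 18168.

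On a T cell the antigen receptor's alpha and beta chains have short tails and signal through the CD3 chains gamma, delta and epsilon, together with zeta. CD4 and CD8 are coreceptors that bind MHC class II and class I molecules and bring the kinase Lck to the receptor, which then phosphorylates the CD3 tails. In lung, the CD3 transcripts come from T cells resident in tissue or passing through with blood, so in whole-lung RNA fewer T cells and less RNA per T cell cannot be told apart.

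Cd3g, Cd3d and Cd3e lie together on chromosome 9, with no protein-coding gene between Cd3g and Cd3d and 1 between Cd3g and Cd3e. Cd4 and Cd8a lie on chromosome 6, Cd2 on chromosome 3 and Thy1 on chromosome 9, with 35 protein-coding genes between it and Cd3g. The sequences just before the starts of Cd3g and Cd3d are shown because Cd3g is the gene whose level passed a test, and Cd3d is its neighbour on the opposite strand, with starts 1355 bases apart. They are RefSeq sequences of build GRCm38.p6 and run 5′ to 3′ on each gene's own strand, over the 250 bases before the start. Capitals mark the core of the motif bound by Ets factors, GGAA on either strand.
Cd3g (chr9:44980432-44980681, minus strand): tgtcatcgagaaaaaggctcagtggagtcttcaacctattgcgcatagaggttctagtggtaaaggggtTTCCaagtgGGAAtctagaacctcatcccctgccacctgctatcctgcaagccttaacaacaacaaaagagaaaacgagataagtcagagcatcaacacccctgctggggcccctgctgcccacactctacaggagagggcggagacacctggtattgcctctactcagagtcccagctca
Cd3d (chr9:44981536-44981785, plus strand): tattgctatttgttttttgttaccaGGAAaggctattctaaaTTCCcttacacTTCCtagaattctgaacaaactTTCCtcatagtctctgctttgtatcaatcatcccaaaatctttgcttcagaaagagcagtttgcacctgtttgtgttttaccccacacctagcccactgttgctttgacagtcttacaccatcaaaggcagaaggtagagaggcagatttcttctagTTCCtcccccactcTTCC
GGAA occurred 2 times before Cd3g and 6 times before Cd3d, and at least once in 93.4% of the 32851 windows of this length, so it is a common sequence. The E-box CANNTG, which is in 66.2% of windows, occurred 3 times before Cd3g and 1 time before Cd3d. GATA, which is in 53.6% of windows, occurred 2 times and 1 time. The Runx motif TGTGGT, in 14% of windows, and TATAAA, in 12.4%, occurred in neither. All motifs were searched on both strands, and these are letter matches that were not tested for binding.

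Cd3g encodes the gamma chain, which pairs with epsilon in the receptor. The B6 arrays gave signals of 154.4 and 149.4, the C3 arrays 200.9 and 156.0, and the F1 arrays 138.3 and 163.9. Among the RI strains they were 165.9 and 151.1 in BXH2, 316.5 and 344.2 in BXH4, 202.9 and 265.8 in BXH6, 211.6 and 178.1 in BXH7, 230.2 and 185.7 in BXH8, 176.1 and 322.3 in BXH9, 203.0 and 177.4 in BXH10, 150.4 and 214.1 in BXH14, and 179.6 and 263.1 in BXH19. Both BXH4 arrays were high, and the only array of another strain at their level was BXH9 replicate 2, which lay above the lower BXH4 array. Ordered by mean, BXH4 stood at 330.4 ± 19.6 (SD, n = 2), BXH9 at 249.2 ± 103.4 and BXH6 at 234.4 ± 44.5, followed by BXH19, BXH8, BXH7, BXH10, BXH14, C3, BXH2, B6 and F1. B6 had 151.9 ± 3.5 and F1 151.1 ± 18.1. The arrays of neighbours in this order overlapped in 11 of 11 pairs.

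**Figure D1:**
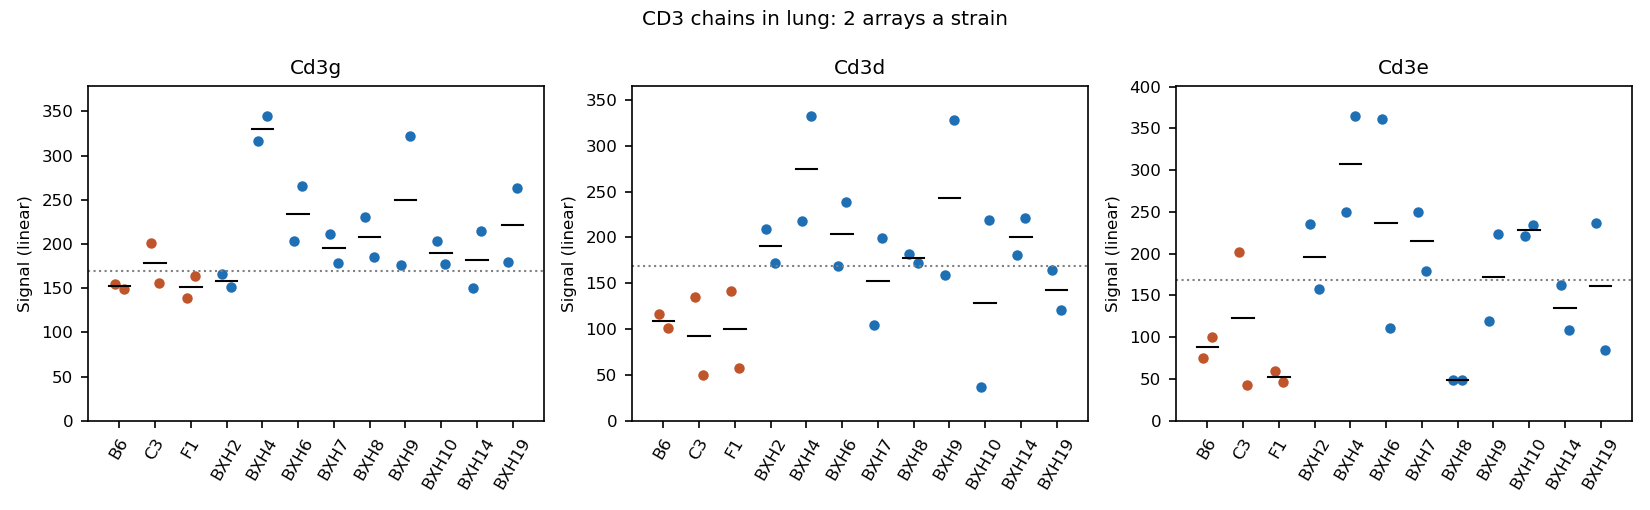
Signal of the 3 CD3 chain genes on every array, by strain, on a linear axis from 0; bars are strain means, points are single arrays, orange for B6, C3 and F1, blue for RI strains, and the dotted line is the dim limit of 169. BXH4 has high arrays in each panel, and BXH9 replicate 2 reaches 322.3 for Cd3g and 328.1 for Cd3d.

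Cd3d encodes the delta chain, which pairs with a second epsilon chain, and its probe set was dim. It read 116.5 and 101.6 on the B6 arrays, 134.9 and 50 on the C3 arrays, and 142.0 and 57.4 on the F1 arrays. In the RI strains they were 209.3 and 172.6 in BXH2, 217.8 and 332.0 in BXH4, 168.8 and 238.6 in BXH6, 104.9 and 199.1 in BXH7, 182.3 and 172.1 in BXH8, 158.7 and 328.1 in BXH9, 37.3 and 218.8 in BXH10, 180.3 and 220.7 in BXH14, and 164.8 and 120.8 in BXH19. Of the 18 RI arrays, 15 lay above the highest of the 6 B6, C3 and F1 arrays, which was 142. How often that occurs over all probe sets was not counted. Replicates were far apart in BXH10, C3 and F1.

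Cd3e encodes the epsilon chain, which is present in each of the receptor's CD3 pairs. Its probe set, also dim, gave B6 signals of 75.6 and 100.3, C3 signals of 202.3 and 42.8, and F1 signals of 59.3 and 45.9. In the RI strains the signals were 235.2 and 157.2 in BXH2, 249.4 and 364.4 in BXH4, 361.4 and 111.2 in BXH6, 250.5 and 179.5 in BXH7, 48.3 and 49.2 in BXH8, 119.9 and 223.6 in BXH9, 221.4 and 234.5 in BXH10, 162.6 and 108.3 in BXH14, and 237.2 and 84.8 in BXH19. BXH8 was the RI strain with both arrays low, at the level of F1, although its Cd3d and Cd3g arrays were in the middle of the range. In the order of mean log2 signal, 9 of 11 neighbouring pairs overlapped, the exceptions being BXH4 with BXH10 and B6 with F1. BXH4 did not stand clear of all strains, since BXH6 replicate 1, at 361.4, lay above the lower BXH4 array.

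The 3 CD3 genes ran only partly in parallel. Over the 12 strain means, which share the same arrays, Pearson's r was 0.68 for Cd3g with Cd3d, 0.56 for Cd3g with Cd3e and 0.47 for Cd3e with Cd3d. Without BXH4 the same values were 0.56, 0.37 and 0.32. Across all 36 pairs of the 9 probe sets r ran from -0.22 to 0.77, with a median of 0.40. The highest, Cd3g with the brighter Cd4 probe set, was 0.37 without BXH4.

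Cd4, the coreceptor of helper T cells, was near the bottom of the array's range on most arrays. Its brighter probe set read 36.7 and 151.2 in BXH4 and 26.3 to 48.0 on all 22 other arrays, so 1 BXH4 array stood alone and the other did not. The fainter Cd4 probe set read 2.8 to 9.0 throughout. Cd8a, the alpha chain of the coreceptor on cytotoxic T cells, read 82.0 to 196.7 by its brighter probe set, and the BXH4 arrays were not above every other array. Its fainter probe set read 82.0 on BXH9 replicate 2 and 4.4 to 25.3 on the 23 other arrays, among them 14.0 on BXH9 replicate 1. The pair of Cd8a probe sets did not run together, with r of -0.19 over strain means.

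Cd2, an adhesion receptor of T and NK cells that binds CD48 in the mouse, was dim and read 63.1 to 175.4. BXH6 replicate 2 gave the highest signal, the BXH19 arrays read 139.7 and 140.0, and the BXH10 arrays, at 63.1 and 67.2, were the lowest pair. Only 1 of 24 arrays reached the limit.

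Thy1, a lipid-anchored surface glycoprotein of mouse T cells that is also made by neurons and some fibroblasts, was above the limit on 24 of 24 arrays. B6 read 363.1 and 300.4, C3 read 377.8 and 347.7, and F1 read 366.2 and 396.0. Among the RI strains they were 393.1 and 431.4 in BXH2, 413.8 and 524.6 in BXH4, 425.8 and 357.9 in BXH6, 408.2 and 410.4 in BXH7, 363.4 and 389.6 in BXH8, 366.3 and 427.7 in BXH9, 334.0 and 384.7 in BXH10, 305.3 and 403.8 in BXH14, and 303.7 and 315.7 in BXH19. Thy1 varied over a narrower span than the CD3 chains, from a strain mean of 469.2 ± 78.3 (SD, n = 2) in BXH4 to 309.7 ± 8.5 in BXH19. Neighbours in the order overlapped in 11 of 11 pairs, and r with Cd3g over strain means was 0.49, or 0.06 without BXH4. The fibroblast list beside it (8 genes with a probe set) had a summed signal of 38284.5 and 30273.8 in BXH4 and 29284.7 to 42973.1 in the other RI strains, and the part of fibroblasts in the Thy1 signal was not tested.

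**Figure D2:**
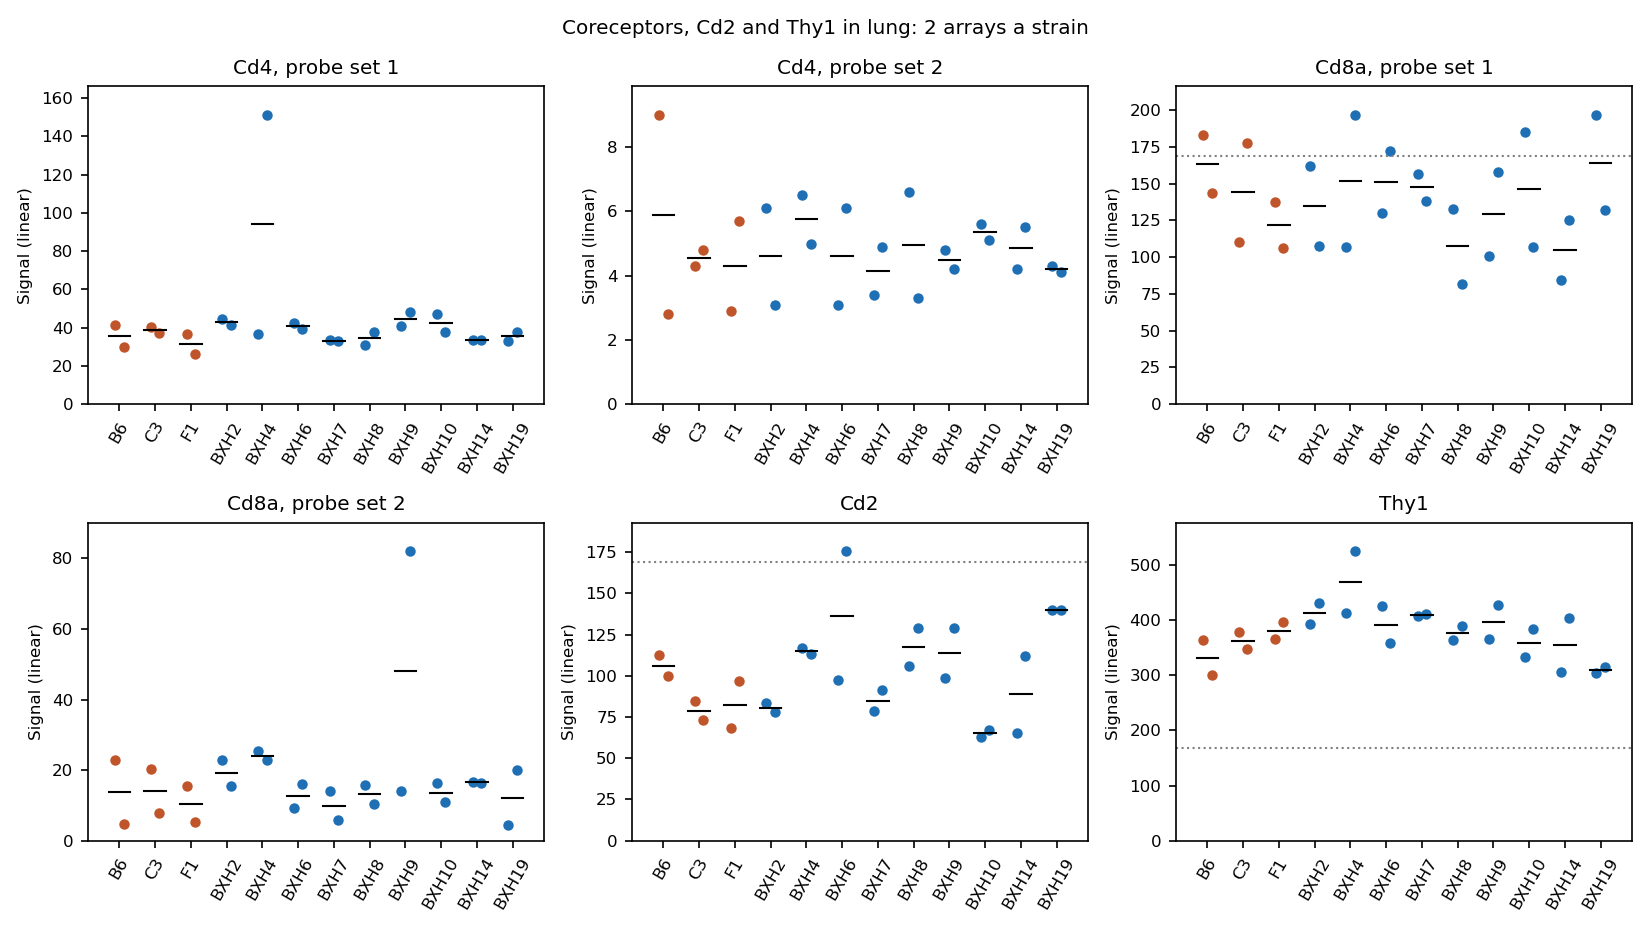
Signal of Cd4, Cd8a, Cd2 and Thy1 probe sets on every array, by strain, on linear axes from 0 with a scale for each panel; bars are strain means, points are single arrays, orange for B6, C3 and F1, blue for RI strains, and the dotted line is the dim limit of 169. Thy1 stays between 300.4 and 524.6, and the brighter Cd4 probe set reads 151.2 on 1 BXH4 array.

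Whether strain background goes with the level of these genes was asked with limma on log2(signal + 16), fitted to the 13584 probe sets above the limit, with Benjamini-Hochberg adjustment over all of them. Differences are on that scale, which understates changes of low signals. The F test over 12 strains called 0 of the 2 tested member probe sets at an adjusted p of 0.05, where 9.69% of all probe sets tested were called. Cd3g had F = 2.75 with an unadjusted p of 0.0276 and an adjusted p of 0.142, and Thy1 had an adjusted p of 0.402. Unadjusted, 1 of 2 passed, where 24.9% of all probe sets tested did. Over the 9 RI strains alone, again 0 of 2 were called against 9.04% of all probe sets, with adjusted p-values of 0.213 for Cd3g and 0.351 for Thy1. There 0 of 2 passed unadjusted, against 25.1% of all probe sets.

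Between the progenitors neither gene was called. Cd3g was 0.20 higher in C3 than in B6 (SE 0.26, 95% interval -0.34 to 0.74, adjusted p = 0.964 in limma), and Thy1 0.13 higher (SE 0.17, interval -0.22 to 0.48, adjusted p = 0.966). The count called was 0 of 2, where 1.73% of probe sets tested were called, and 0 of 2 passed unadjusted, where 9% did. The F1 was compared with the mean of its parents, and 0 of 2 were called, where 0.103% of all were. Unadjusted, 0 of 2 passed there, where 7.32% of all did. There Cd3g differed by -0.11 (interval -0.58 to 0.35) and Thy1 by 0.13 (interval -0.17 to 0.44). Differences inside these intervals were not excluded, up to 0.74 for Cd3g and 0.48 for Thy1 between the progenitors. How large a difference 2 arrays a strain could detect in these comparisons was not tested.

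BXH4 was the only RI strain in which a member was called against the other RI strains. The adjustment was made within each comparison, so it does not allow for the choice of a strain among the RI strains. The F test over the RI strains, which covers that choice, did not call Cd3g. Cd3g was 0.68 higher in BXH4 than in the other 8 RI strains (SE 0.19, 95% interval 0.27 to 1.08, adjusted p = 0.0383 in limma), with a mean signal of 330.4 against 204.8. Thy1 was 0.31 higher (SE 0.13, interval 0.04 to 0.57, adjusted p = 0.143) and was not called. 1 of 2 members was therefore called, where 8.18% of all probe sets tested were called in BXH4 and 3.61% were called higher. The Cd3g call rests on both BXH4 arrays: the adjusted p was 0.15 without replicate 1 and 0.265 without replicate 2, and it was 0.0534 without BXH7 replicate 2 and 0.0657 when all probe sets were tested. Both BXH4 arrays were above every other RI array for 3.43% of the probe sets tested, and Cd3g was not among them because of BXH9 replicate 2. Without that array the difference was 0.73 (adjusted p = 0.0182).

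No other RI strain had a member called against the rest. The share of all probe sets called was 1.27% for BXH2, 1.69% for BXH6, 1.3% for BXH7, 1.23% for BXH8, 2.36% for BXH9, 1.25% for BXH10, 1.38% for BXH14 and 1.31% for BXH19. Without adjustment 2 further differences passed 0.05, where 11.5% of all probe sets did in BXH2 and 11.7% in BXH19. Cd3g differed by -0.44 in BXH2 (SE 0.19, adjusted p = 0.383 in limma) and Thy1 by -0.33 in BXH19 (SE 0.13, adjusted p = 0.268).

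When the dim members were included by testing all 22626 probe sets that are no array control, 0 of 9 member probe sets were called in any comparison. The share of all probe sets called in that fit was 5.48% over 12 strains, 5.44% over the RI strains, 1.18% for C3 against B6, 0.0619% for the F1, 4.15% for BXH4 and, for the other RI strains in the order above, 0.849%, 0.95%, 0.813%, 0.765%, 1.24%, 0.773%, 0.897% and 0.72%. Unadjusted, 4 of 9 passed in BXH4, where 18.2% of all probe sets did. Over 12 strains 2 of 9 passed (19.3% of all), and over the RI strains 2 (19.4%). In single RI strains 1 passed in BXH2 (9.78%), BXH8 (8.63%), BXH9 (13.6%) and BXH10 (9.72%), and 2 in BXH19 (10%). It was 0 in BXH6 (9.58%), BXH7 (8.35%) and BXH14 (10.8%), for C3 against B6 (7.84%) and for the F1 (6.4%). In BXH4 all 9 differences were positive, with a median of 0.33 against 0.02 over all probe sets, and all 9 were positive after quantile normalization and after median centring too. The 9 probe sets are of 7 genes on the same arrays, so they are not separate observations. The share of all probe sets with a positive difference was not counted. Besides Cd3g and Thy1, the BXH4 differences were 0.90 for Cd3e (SE 0.42, adjusted p = 0.27 in limma) and 0.64 for Cd3d (SE 0.42, adjusted p = 0.475). They were 0.79 and 0.08 for the Cd4 probe sets, 0.13 and 0.33 for the Cd8a probe sets, and 0.18 for Cd2. The Cd4 difference of 0.79 rests on 1 BXH4 array, at 151.2, with the other at 36.7. The fainter Cd4 and Cd8a probe sets had very low mean signals, 5.8 against 4.6 and 24 against 18.2. The difference for Cd3e in BXH8 was -1.68 (SE 0.42, adjusted p = 0.0872 in limma), with mean signals of 48.8 against 206.3. Cd2 differed by -0.60 in BXH10 (adjusted p = 0.284) and by 0.46 in BXH19 (adjusted p = 0.452).

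**Figure D3:**
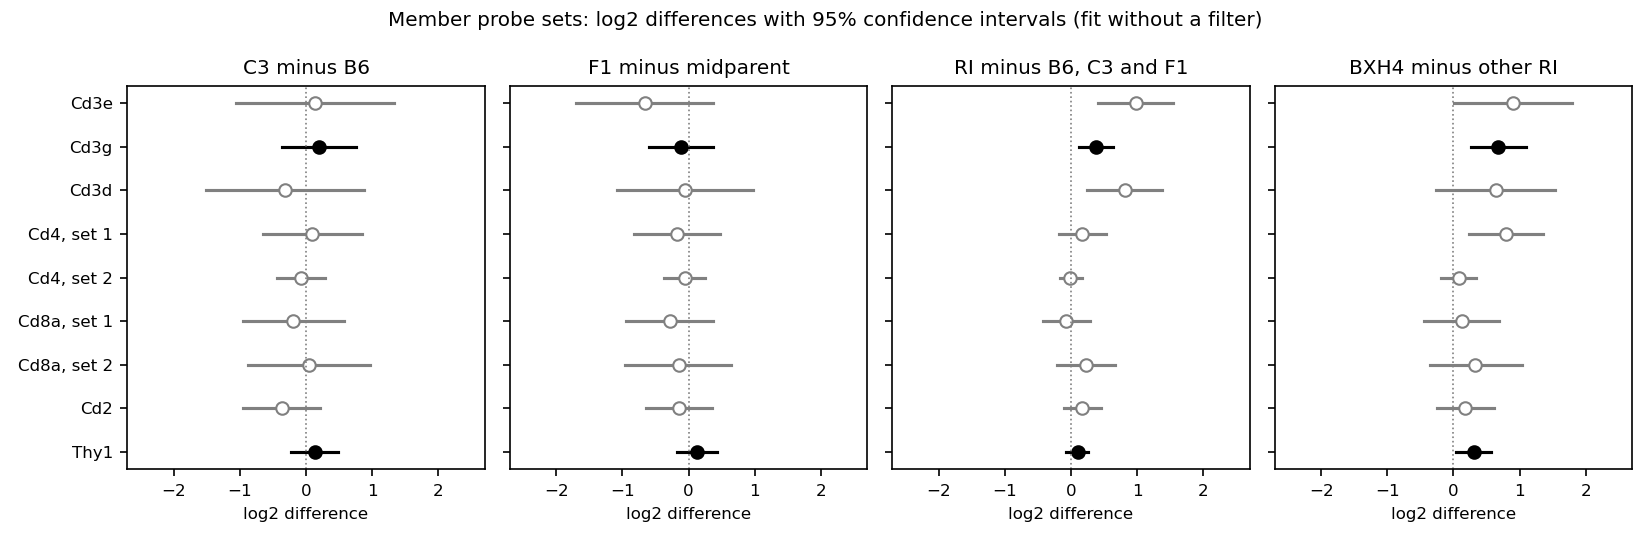
Difference on the log2(signal + 16) scale, with 95% intervals from limma, for each member probe set in 4 comparisons; filled points lie above the dim limit and open points are dim, and all values are from the fit to all probe sets. Every point of the BXH4 panel is above 0, with Cd3g at 0.68 and an interval of 0.26 to 1.09 in this fit.

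A comparison of all 9 RI strains with B6, C3 and F1 was added after the data were seen. Cd3g was 0.38 higher in the RI strains (SE 0.12, interval 0.13 to 0.63, adjusted p = 0.116 in limma), with mean signals of 218.8 against 160.5. Thy1 was 0.10 higher (adjusted p = 0.593), so 0 of 2 were called, where 2.15% of all probe sets were. Unadjusted, 1 of 2 passed, where 15.5% of all probe sets did. In the fit to all probe sets the difference was 0.98 for Cd3e (SE 0.27, adjusted p = 0.0944 in limma) and 0.81 for Cd3d (SE 0.27, adjusted p = 0.186), with 0 of 9 called against 1.03% of all probe sets. Unadjusted, 3 of 9 passed in that fit, where 12.3% of all probe sets did. Of 18 RI arrays, 10 were above the highest B6, C3 or F1 array for Cd3g and 9 for Cd3e. The same count was 8 for Thy1, 7 for Cd2, 5 and 0 for the Cd4 probe sets, and 3 and 2 for the Cd8a probe sets. It was not made over all probe sets. No CD3 gene passed the adjusted threshold in this comparison.

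Other genes of the receptor's signalling pathway were followed through a list in which 22 of 33 symbols had a probe set and 7 genes were above the limit. A gene was counted when at least 1 of its tested probe sets was called, and probe sets of 1 gene did not always move together. A gene with several probe sets thus had more chances to be counted than a single probe set in the shares given. In a fit to 1 probe set a gene, 291 of 8280 were called higher in BXH4. In BXH4, 2 of the 7 genes had a probe set that rose and none had one that fell, against 3.61% of all probe sets called higher, and the median difference was 0.36. Lat, the membrane adaptor phosphorylated downstream of the receptor, read 509.8 and 586.8 in BXH4 and 226.4 to 389.9 in the other RI strains, a difference of 0.85 (SE 0.21, adjusted p = 0.0215 in limma). Fyn, a Src-family kinase related to Lck, read 811.4 and 932.8 against 507.7 to 831.9, a difference of 0.39 (SE 0.10, adjusted p = 0.0264). The other Fyn probe set tested differed by 0.08 (adjusted p = 0.73), with 402.7 and 563.5 in BXH4 against 369.6 to 542, so the Fyn count rests on 1 of 2 probe sets. Ptprc, the CD45 phosphatase that activates Lck and is on all leukocytes, differed by 0.49 (adjusted p = 0.0543), Csk, a kinase that restrains Lck, by 0.36 (adjusted p = 0.174), and Lcp2, the SLP-76 adaptor, by 0.18 (adjusted p = 0.48). Without either BXH4 array the count in this list was 0. Over 12 strains 1 of the 7 genes was called, where 9.69% of all probe sets tested were. It was Fyn, with an adjusted p of 0.0112 by the first probe set and 0.494 by the other.

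A second list, of genes of T cell identity, had a named probe set for 16 of 20 symbols and 8 genes above the limit. In BXH4, 4 of the 8 had a probe set that rose, where 3.61% of all probe sets tested were called higher. Ms4a4b, a membrane protein of T cells, read 486.8 and 473.6 in BXH4 against 199.4 to 337.6 in the other RI strains (difference 0.98, SE 0.17, adjusted p = 0.00187 in limma); its other, dim probe set differed by 0.63 (adjusted p = 0.433) in the fit to all probe sets. Il2rb, the interleukin-2 receptor beta chain of T and NK cells, differed by 1.00 (adjusted p = 0.0114), and S1pr1, the receptor by which lymphocytes leave lymphoid organs, which endothelium also makes, by 0.55 (adjusted p = 0.0262). Ets1, a lymphocyte transcription factor, was counted by 1 of its 4 tested probe sets, which differed by 0.99 (adjusted p = 0.0128). The other 3 Ets1 probe sets differed by 0.30 (adjusted p = 0.249), -0.08 (adjusted p = 0.735) and 0.12 (adjusted p = 0.724), and the probe sets at -0.08 and 0.12 are the brightest, with mean signals of 2035.8 and 2861.8. The difference for Zbtb7b, the factor of the CD4 lineage, was 0.32 (adjusted p = 0.268), and 0.40 (adjusted p = 0.165) by its other probe set. When 1 BXH4 array was left out the count in this list was as low as 1. Ms4a4b was also higher in the RI strains than in B6, C3 and F1, by 0.63 (adjusted p = 0.00267).

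Genes of NK and cytotoxic cells rose with Cd3g in BXH4, 6 of 6 tested, with a median difference of 1.17. Of all probe sets tested, 3.61% were called higher in BXH4. Gzma, granzyme A, read 3752.1 and 3077.7 in BXH4 against 235.9 to 1536.6 in the other RI strains (difference 2.40, SE 0.23, adjusted p = 4.63e-06 in limma). Klrd1, the CD94 receptor, differed by 0.97 (adjusted p = 0.0215), with 562.8 and 628.5 in BXH4 inside the 115.2 to 688.6 of the other RI strains. In the fit to all probe sets, the dim Cd7 probe set differed by -0.25 and a dim Prf1 probe set by -0.06. The list's other dim probe sets differed by 0.42 to 2.30. The summed signal of that list was 7943.9 and 7251.3 in BXH4, 1324.8 to 4115.3 in the other RI strains, and 1655.8 to 2290.3 in B6, C3 and F1. The range of B6, C3 and F1 lay within that of the other RI strains, and both BXH4 sums lay above both ranges; among single probe sets tested, 3.43% had both BXH4 arrays above every other RI array. NK cells share Fyn, Lat, Il2rb, Ets1 and Cd2 with T cells and can hold CD3 transcripts, and the part of NK cells in these differences was not tested.

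Of the other lists, 3 of 8 pan-leukocyte genes had a probe set that rose in BXH4, where 3.61% of all probe sets tested were called higher. Among these genes was Itgb2, the beta-2 integrin, by 0.60 (adjusted p = 0.0301 in limma). Of 10 symbols listed for gamma-delta T cells 2 had a probe set, Sox13 and Blk, and no gamma or delta receptor chain did. Sox13, with a mean signal of 794.5, rose by 0.66 (adjusted p = 0.00691), and Blk, a kinase that B cells also make, was at -0.10. None of 6 B cell genes, 2 thymocyte genes, 8 monocyte and macrophage genes, 8 skeletal muscle genes and 1 gene of lymphoid stroma was called higher in BXH4. The B cell genes Cd79b, of the B cell receptor, and Ighm differed by -0.68 (adjusted p = 0.0515) and -0.38 (adjusted p = 0.49), and the other 3 tested Ighm probe sets by -0.52, 0.13 and -0.21. The summed B cell signal in BXH4, 3177.2 and 3801.2, lay within that of the other RI strains, 2702.8 to 7783.1. Of 8 fibroblast genes, 3 had a probe set that fell, including Col1a2, a collagen chain, by 0.53 and Dcn, decorin, by 0.56 on the log2 scale, where 4.56% of all probe sets were called lower. The brighter Col1a2 probe set, with a mean signal of 7579, differed by -0.07 (adjusted p = 0.79). No neural gene was above the limit, and the 7 with a probe set summed to 254.9 to 532.7 on all arrays.

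**Figure D4:**
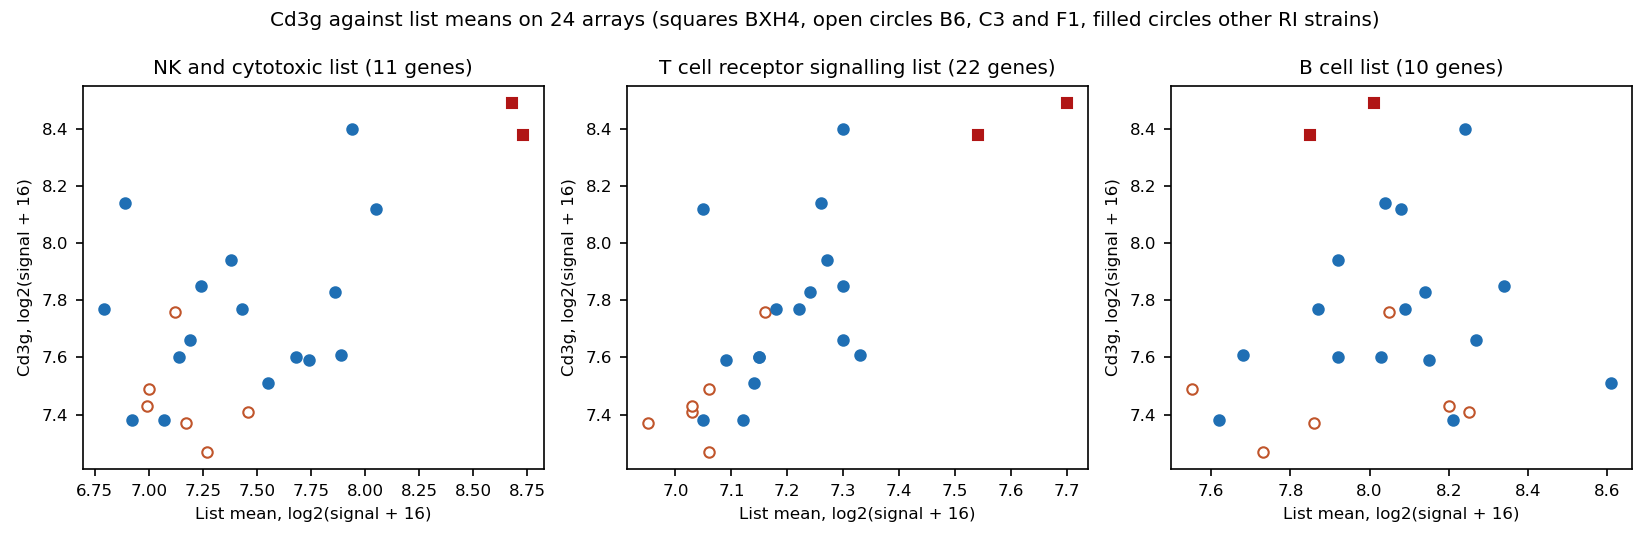
Log2(signal + 16) of Cd3g against the mean of 3 gene lists on the same scale, with 1 point for each of 24 arrays; squares are BXH4, open circles B6, C3 and F1, and filled circles the other RI strains. The BXH4 arrays, at 316.5 and 344.2 for Cd3g, are the highest on the NK and cytotoxic axis and on the receptor signalling axis, and lie within the other arrays on the B cell axis.

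BXH9 replicate 2 was the array with high Cd3g, Cd3d and fainter Cd8a signals. It differed from BXH9 replicate 1 in some genes of immature T cells and not in others. These genes were singled out after their values were seen. Rag1, the recombinase that joins receptor gene segments in developing lymphocytes, read 274.1 there, 21.6 on replicate 1 and at most 54.1 on the other arrays. Dntt, terminal transferase, read 257.8 on that array and 42.7 to 151.5 on the others by one probe set, 181.4 and 10.1 to 31.8 by another, and 58.7 and 18.3 to 95.2 by the third. Rag2, Rag1's partner, read 8.9 there and 7.8 on replicate 1. Ptcra, the pre-receptor alpha chain, read 86.2 there and 110.4 on replicate 1. Both were inside the range of the other arrays. Arpp21, of the same thymocyte list, read 33.2, 71.1 and 19.6 there by separate probe sets, and 96.3, 72.2 and 9.4 on replicate 1. Ccr9, also of that list, read 113.9, 27.6 and 11.6 there, and 70.9, 9.1 and 10.8 on replicate 1. The summed skeletal muscle signal of the same array was 38407.6, the highest of all, with 22108.7 on replicate 1. The part of tissue next to the lung in the CD3 signals of that array was not tested.

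The genes whose signal ran most like the members' over the 24 arrays were chosen by Pearson's r with the mean of Cd3g and Thy1. They were Kctd20 (r = 0.79), Ms4a4b (0.77), Dock2 and Ms4a6b (0.76), Epsti1 (0.75), Lat (0.73), Ptprc, Irgm2 and Itgb7 (0.72) and Polr2a (0.71). Over the 22 arrays without BXH4 these were lower, from 0.47 for Itgb7, 0.50 for Polr2a, 0.51 for Lat and 0.52 for Epsti1 to 0.66 for Kctd20. Dock2 is a regulator of lymphocyte migration and Itgb7 an integrin chain of lymphocytes. For Cd3g alone the nearest were Ms4a6b (r = 0.80), Ms4a4b (0.77) and Epsti1 (0.75), and these were 0.68, 0.61 and 0.58 without BXH4. For Thy1 the nearest were Il17ra (0.75), Abca7 (0.72) and Zfp395 (0.70), with 0.64, 0.60 and 0.71 without BXH4. These are descriptions over arrays that share strains and were chosen as the highest values.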

How the data were processed

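The authors deposited 1 signal intensity per probe set and array in the series' value table, on a linear scale; its software and scaling: not given in the sources used here. RNA was prepared with Trizol and hybridised as biotin-labelled cRNA, per the labels' protocols. Probe sets were named by the platform annotation: 20380 had 1 symbol, 691 several and 1555 none, and 64 were controls. The intensities, plus 16, were log2 transformed and fitted with limma 3.58.1 in R 4.3.3 (1 mean per strain, 24 arrays, 12 residual degrees of freedom, trended eBayes), without a replicate block, on the 60% of probe sets with the highest mean (back-transformed from log2, a limit of 169). The fit was tested on simulated data. The members and lists were chosen with earlier results of these data known. Named were all member probe sets, the 10 genes most like their mean and 3 most like each member above the limit by Pearson's r, and, by smallest F p, up to 5 genes of each pathway list and 2 of each marker list. Replicate numbers did not pair arrays: over 66 pairs of strains, same-numbered arrays' deviations correlated at -0.29 to 0.34, with 20 above 0.1. Alternatives were other scalings, offsets, filters, 1 probe set a gene, an untrended prior, a block, fewer arrays and leaving out each array.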

Additional observations from a re-analysis of the deposited data

How the results depend on the processing

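The count of members called in an RI strain against the others fell from 1 to 0 with no filter on low signals, with the top 40% of probe sets, which leaves Cd3g untested, and with only the arrays compared in the fit, and ranged from 0 to 1 when single arrays were left out. It was 0 without BXH4 replicate 1, BXH4 replicate 2 or BXH7 replicate 2. The difference for Cd3g in BXH4 was 0.68 in limma with no filter (adjusted p = 0.0657) and 0.68 with only the arrays compared (adjusted p = 0.056); over all alternatives it ran from 0.57 to 0.72, with adjusted p from 0.0305 to 0.0657, and with single arrays left out from 0.62 to 0.73, with adjusted p from 0.0182 to 0.265. With the replicate number as a block it was 0.68 (adjusted p = 0.039), and the block changed no count of members. The difference for Thy1 between C3 and B6, 0.13, ran from 0, without B6 replicate 2, to 0.26 when single arrays were left out. The other counts of members were 0 under every alternative run. Median centring left 37% of the BXH4 calls higher, against 44.2% in the fit reported. A lone array left in a strain was assumed to vary like the others. With 2 arrays a strain and 7 of 9 probe sets dim, small differences in Cd4, Cd8a and Cd2 may have been missed here.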

Other observations

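A few dim T cell probe sets were called when all probe sets were tested, and they were singled out after their values were seen. That fit called 4.15% of all probe sets for BXH4 and 1.03% for the RI strains against B6, C3 and F1. Dim probe sets of Cd28, Cd5, Cd6, Cd247, Ctla4, Foxp3 and Gata3 were called in neither comparison. The dim T cell probe sets called were not counted. Cd8b1, the beta chain that pairs with Cd8a in the coreceptor, was 0.78 higher in BXH4 than in the other RI strains (adjusted p = 0.0267 in limma) and 0.55 higher in the RI strains than in B6, C3 and F1 (adjusted p = 0.0287). Cd8a itself was called in neither comparison. Its brighter and fainter probe sets differed by 0.13 and 0.33 in BXH4, and by -0.07 and 0.22 in the RI strains against B6, C3 and F1. Icos, a costimulatory receptor of activated T cells, was 1.06 higher in BXH4 by a dim probe set (adjusted p = 0.0212 in limma). The brighter Icos probe set, with a mean signal of 184.6, read 216.8 and 159.2 in BXH4 and 117.1 to 249.7 in the other RI strains, and differed by 0.01 (SE 0.22, adjusted p = 0.987 in limma), so its probe sets disagree.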
